A study of Mus musculus with 2 samples.

Results

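The cells described here are CD8 T cells from mouse tumours, picked so that they carry little RNA of 6 macrophage genes. A barcode was taken when it had at least 200 genes, at most 10% mitochondrial UMIs, at least 2 UMIs of Cd8a and Cd8b1, which encode the CD8 co-receptor, and at least 2 UMIs of Cd3d, Cd3e and Cd3g of the T cell receptor complex. It could have at most 1 UMI of the NK cell genes Ncr1, Klrb1c and Klre1. The UMIs of C1qa, C1qb, C1qc, Csf1r, F13a1 and Ms4a6c had to stay under 10 per 10000. These limits left 138 cells in the WT library and 123 in the Ythdf2 KO library, 261 of the 36259 barcodes that passed the gene and mitochondrial limits. The share was 0.676% in WT (95% exact binomial interval 0.568% to 0.798%) and 0.776% in Ythdf2 KO (0.646% to 0.926%), so the shares differed by less than their intervals are wide.

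The study sorted CD45+ leukocytes, the white blood cells, from tumours of C57BL/6 mice and sequenced them with droplet-based single-cell RNA-seq, with 1 library from WT and 1 from Ythdf2-KO tumours. Ythdf2 encodes a reader protein that binds N6-methyladenosine in mRNA, and the series asks about its role in the tumour's escape from immune cells. The labels speak of knockout tumours, and the series' design text speaks of conditional knockout mice. Which cells lost Ythdf2, which Cre was used, the tumour line, the sex and age of the mice and the number of tumours pooled are not given in the sources used here. With 1 library per genotype there is no test of the genotype: the intervals below are 95% intervals, cover counting error only, and say nothing of the spread between animals.

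CD8 T cells recognise peptides on MHC class I molecules and kill the presenting cell with perforin, which opens its membrane, and granzymes, the proteases that enter through it. Cells that circulate between blood and lymph nodes express Ccr7, Klf2 and Tcf7, and after activation in a tumour CD8 T cells lose these and gain granzymes, Ifng and, under lasting stimulation, inhibitory receptors such as Pdcd1. Interferons made in the tumour act on T cells too and induce a shared set of antiviral genes through the ISGF3 complex and related factors.

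The name "CD8 T cells without macrophage RNA" was only partly borne out. Over 11 myeloid genes that the choice of cells did not use, among them Lyz2, Cst3, Cd68, Aif1 and Apoe, the median cell had 12.8 UMIs per 10000 in WT and 5.85 in Ythdf2 KO, and the highest cells reached 324 and 150.2. In WT, 64 of 138 cells were under 10 per 10000 (46.4%, 37.9% to 55.1%). In Ythdf2 KO, 75 of 123 were (61.0%, 51.8% to 69.6%), whereas 78.0% and 78.6% of NK cells were under that limit. The 6 genes of the choice therefore left cells with RNA of other myeloid genes, more of them in WT. A WT cell above the limit had a median of 10136.5 UMIs against 4978.5 for one below it, and the Ythdf2 KO medians were 13011.5 and 7021. The 64 and 75 cells below the limit are called myeloid-poor here. The limit was set after seeing the data, and the main results are given for the myeloid-poor cells too.

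**Figure D1:**
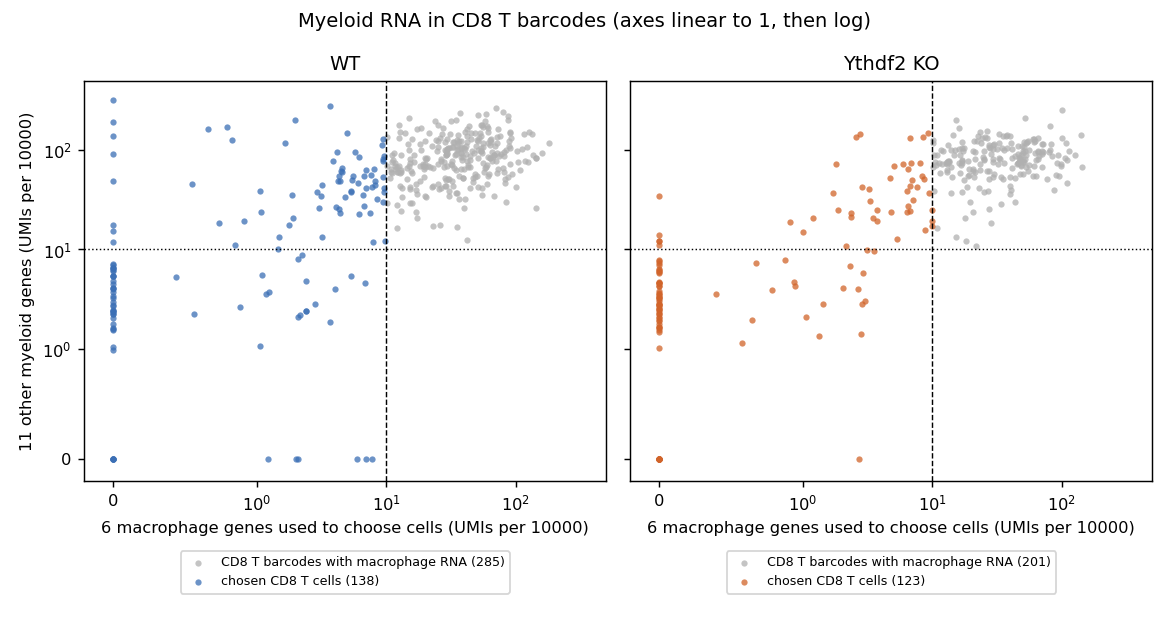
Each point is a CD8 T barcode of the WT (left) or Ythdf2 KO library (right), with UMIs per 10000 of the 6 macrophage genes used to choose cells (horizontal) against those of 11 other myeloid genes (vertical), on axes that are linear to 1 and logarithmic above; coloured points are the chosen cells, grey points the barcodes with macrophage RNA, and the lines stand at 10. Below the horizontal line lie 75 of 123 chosen Ythdf2 KO cells and 64 of 138 WT cells, and some WT cells with no UMI of the 6 genes lie far above it.

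Lists of markers of other cell types gave the same picture. The 16 macrophage genes summed to 4396 CPM (UMIs per 1000000 UMIs of the library's CD8 T cells) in WT and 2820 CPM in Ythdf2 KO, with none at 0, but to 567 and 697 CPM in the myeloid-poor cells. Dendritic cell markers summed to 2713 CPM in WT and 1641 CPM in Ythdf2 KO, with Clec9a and Cd209a at 0 in both libraries, and to 692 and 649.9 CPM in the myeloid-poor cells, where 8 and 3 of the 12 genes were at 0. The dendritic list includes Bst2, an interferon-induced gene also treated below, so these sums are not of dendritic cell RNA alone. Neutrophil markers stood at 1044 CPM in WT and 1135 CPM in Ythdf2 KO, and at 58.0 and 160 CPM in the myeloid-poor cells. B cell markers (72.8 and 75.9 CPM), gamma-delta T cell markers (17.4 and 23 CPM) and red cell and platelet markers (0 and 6.77 CPM) were low. NK cell markers summed to 2647 and 3256 CPM, of which Gzmc, Fcer1g and Tyrobp, genes that T or myeloid cells can also express, gave most. The tumour and stroma list held 28.5 CPM in WT and 152 CPM in Ythdf2 KO. Rhox5, a homeobox gene of reproductive tissue and of many tumours, gave 96.9 CPM of it in Ythdf2 KO, with 143 UMIs in 7 cells, and 0.792 CPM in WT, with 1 UMI. What part this RNA of other cells has in the differences below was not tested beyond the myeloid-poor values.

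The libraries held 20415 WT and 15844 Ythdf2 KO barcodes after the gene and mitochondrial limits. The CD8 T cells gave 1263335 UMIs in WT and 1476311 in Ythdf2 KO, with medians of 7829.5 and 9444 UMIs and 2352.5 and 2603 genes per cell. Of the 101 barcode sequences that the libraries share, 2 belonged to these cells, both in Ythdf2 KO. A Scrublet doublet score among the highest 8% of a library was found in 5 WT (3.62%) and 7 Ythdf2 KO cells (5.69%), against 14.7% and 26.9% of the CD8 T barcodes that do hold RNA of the 6 macrophage genes. Those barcodes numbered 285 and 201, so that the cells described here were 32.6% (28.2% to 37.3%) of all CD8 T barcodes in WT and 38.0% (32.7% to 43.5%) in Ythdf2 KO. The limits cut through continuous ranges: 33 WT and 15 Ythdf2 KO cells had exactly 2 Cd8 UMIs and 36 and 25 further barcodes missed by 1 UMI, and 36 and 24 cells had 5 to under 10 macrophage UMIs per 10000 where 38 and 30 barcodes had 10 to under 15.

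Ythdf2 itself (ENSMUSG00000040025; mm10 chr4:132184912-132212303, minus strand) was still detected in Ythdf2 KO CD8 T cells. There were 77 UMIs in WT and 64 in Ythdf2 KO, 61 CPM in WT and 43.4 CPM in Ythdf2 KO cells (ratio 0.711, 0.502 to 1.0), and the ratio was 0.579 (0.340 to 0.985) in the myeloid-poor cells and 0.922 in NK cells. Counts over a whole gene cannot show whether an exon was removed, so they neither bear out nor contradict the label. The other 5 measured genes of m6A writers, readers and erasers stayed within 1.5-fold, and the list's median log2 ratio was -0.10.

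Genes that the choice did not use gave the cells a T cell profile. Against all other kept barcodes, in the library with the smaller fold, Themis, a regulator of T cell receptor signalling, was 14.1-fold higher, Dapl1, a gene of naive-like T cells, 12.7-fold, the receptor constant genes Trac 9.46-fold and Trbc2 6.94-fold, Pdcd1 9.29-fold and Ifng 7.37-fold. This is a description, since the cells were chosen by genes that vary with these. Receptor variable segments were seen in few cells. Trbv UMIs were in 30 WT and 38 Ythdf2 KO cells, spread over 14 and 15 segments, and the most frequent segment was in 5 WT cells (Trbv13-1 and Trbv29 alike) and in 6 Ythdf2 KO cells (Trbv2), so no single segment dominated among the cells with one. Transcripts of the receptor complex differed little: 0 of 14 measured genes was past 1.5-fold, with a median log2 ratio of -0.16.

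The cells were a mixture of states. After thinning each cell to 1000 UMIs, which left out 1 cell per library, a UMI of any of 4 circulation genes, among them Ccr7 and S1pr1, without one of Gzmb, Prf1, Havcr2 or Lag3 was found in 16 of 137 WT cells (11.7%) and 11 of 122 Ythdf2 KO cells (9.02%). The reverse, effector genes only, held for 76 WT (55.5%) and 73 Ythdf2 KO cells (59.8%), both kinds for 23 (16.8%) and 16 (13.1%), and neither for 22 (16.1%) and 22 (18.0%). The division between states was thus alike in the libraries. Some genes outside this sorting differed between the states in the same way in both libraries. Tcf7, the transcription factor of naive and stem-like T cells, stood at 307 CPM in the WT cells with circulation genes only against 35.8 CPM in those with effector genes only, and at 302 against 8.62 CPM in Ythdf2 KO. Klf2, which drives expression of the lymph-node homing genes, went from 1302 to 590 CPM in WT and from 1127 to 362 CPM in Ythdf2 KO. Ifng showed the opposite order in WT, with 55.8 CPM in cells with circulation genes only and 1093 CPM in cells with effector genes only. In Ythdf2 KO it was 1186 CPM in cells with effector genes only, and no UMI was seen in the 11 cells with circulation genes only, where the exact Poisson upper bound is 58.5 CPM. Other genes did not follow the sorting. Il7r, of the interleukin 7 receptor, had 409 CPM with circulation genes only and 271 CPM with effector genes only in WT but 206 and 216 CPM in Ythdf2 KO, and Ly6c2, a surface protein of memory cells, had 1990 and 2085 CPM in WT and 555 and 1408 CPM in Ythdf2 KO. The chemokine gene Xcl1 had 149 and 315 CPM in WT but 2237 and 36.6 CPM in Ythdf2 KO, where 2 of the 11 cells held its UMIs. The cells with circulation genes only also held RNA of other cell types, more of it in WT. Cst3 had 2055 CPM there in WT and 127 CPM in Ythdf2 KO, and Cd74 1302 and 15.9 CPM. In the cells with neither kind Cst3 went the other way, with 585 and 786 CPM. What part such RNA has in the sorting was not tested. These numbers come from few cells, and the order is a description of co-occurring genes.

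**Figure D2:**
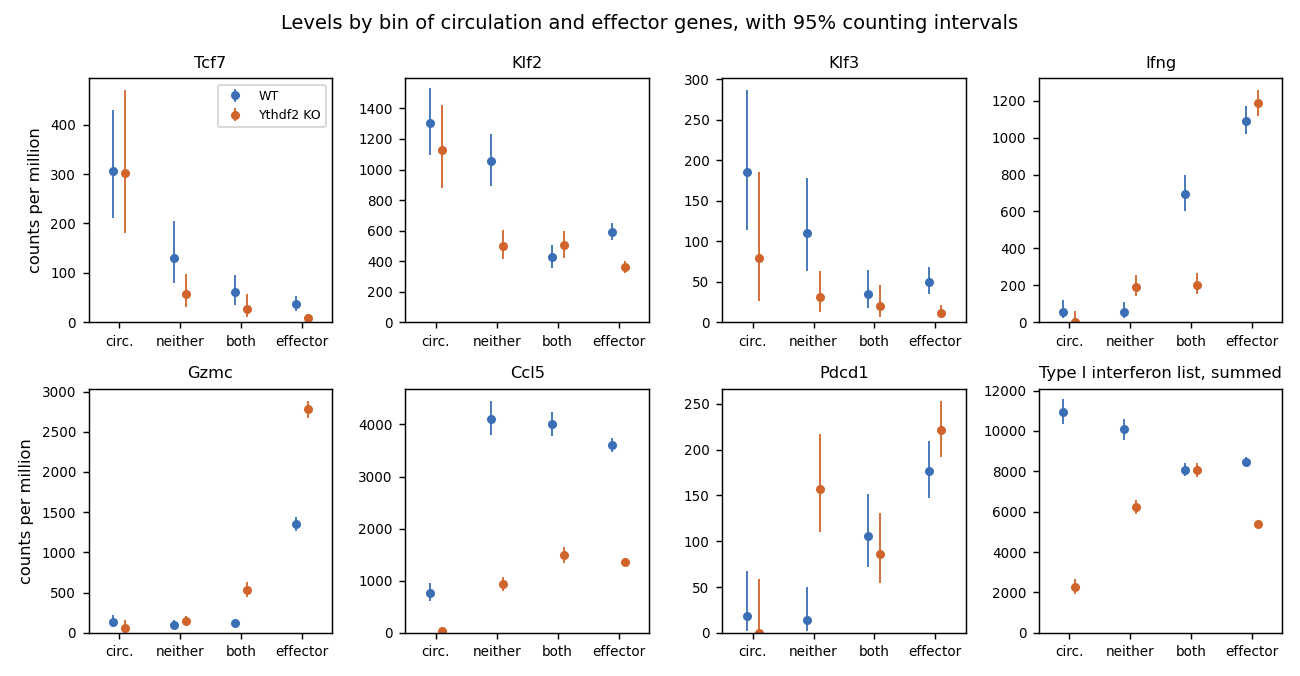
Levels in CPM (vertical, linear) of 7 genes not used for the sorting and of the summed type I interferon list, in CD8 T cells with circulation genes only (circ.), neither kind, both kinds or effector genes only, for WT (blue) and Ythdf2 KO (orange); bars are exact Poisson 95% intervals. Tcf7 and Klf2 are highest in cells with circulation genes only, Ifng, Gzmc and Pdcd1 in cells with effector genes only, and Ccl5 is lower in Ythdf2 KO in all 4 states.

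Between genotypes, levels are UMI sums over the cells of a library, scaled to CPM, and the ratio is Ythdf2 KO over WT. Of 3536 genes with at least 100 UMIs over both libraries, 234 (6.62%) were at least 1.5-fold higher and 331 (9.36%) at least 1.5-fold lower in Ythdf2 KO, and the median log2 ratio of all of them was 0.00. Among the myeloid-poor cells, 1530 genes had enough UMIs, of which 125 (8.17%) were higher and 100 (6.54%) lower, with a median of 0.07. The counts of each gene group below are read beside these shares. NK cells had 169 of 10217 measured genes at least 1.5-fold higher and 170 lower, and macrophages 162 and 294 of 9559. B cells had 98 higher and 81 lower of 1843, and the CD8 T barcodes with macrophage RNA 129 and 203 of 7109. Ratios of single genes in the myeloid-poor cells are also given where a gene had under 100 UMIs there, and then with their interval or UMIs. The groups were put together with earlier results of these data known, so their direction is no independent evidence.

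Type I interferon-induced genes were lower in the Ythdf2 KO cells. Of 28 genes listed, 25 had enough UMIs, and 11 of the 25 were past 1.5-fold, all lower, where 9.36% of all genes were. Each of the 25 ratios was under 1 and their median log2 ratio was -0.58. In the myeloid-poor cells 16 of 18 measured genes were past 1.5-fold lower, where 6.54% of all genes were, and the median was -0.98. The promoters of 3 of the 11 are shown as examples of those that hold the motif of interferon-induced genes. They are the 250 bases before the transcription start (RefSeq, build GRCm38.p6), from 5′ to 3′ on the strand of the gene, with the motif GAAANNGAAA, the core of the interferon-stimulated response element, in capitals on either strand.
Isg15, chr4:156200819-156201068, minus strand: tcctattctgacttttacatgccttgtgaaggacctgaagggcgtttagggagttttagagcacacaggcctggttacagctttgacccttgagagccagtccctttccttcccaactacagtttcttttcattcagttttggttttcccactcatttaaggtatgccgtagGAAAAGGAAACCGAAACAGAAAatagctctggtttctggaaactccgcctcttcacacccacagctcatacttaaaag
Ifit3, chr19:34583279-34583528, plus strand: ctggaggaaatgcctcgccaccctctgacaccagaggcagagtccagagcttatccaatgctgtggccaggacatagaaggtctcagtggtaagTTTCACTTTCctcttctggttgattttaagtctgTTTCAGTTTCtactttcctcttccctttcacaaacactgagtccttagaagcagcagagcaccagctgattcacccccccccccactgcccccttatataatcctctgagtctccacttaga
Rsad2, chr12:26456453-26456702, minus strand: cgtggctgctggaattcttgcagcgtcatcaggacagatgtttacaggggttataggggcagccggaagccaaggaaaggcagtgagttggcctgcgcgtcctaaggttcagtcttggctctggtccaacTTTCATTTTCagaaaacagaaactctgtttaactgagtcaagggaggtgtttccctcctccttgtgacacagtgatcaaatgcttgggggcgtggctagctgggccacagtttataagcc

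The Isg15 promoter had 3 overlapping matches, the first of them 78 bases before the start, Ifit3 had 2, the farther one 156 bases before the start, and Rsad2 had 1 at 120 bases. Over windows from 250 bases before to 50 after the start, 1131 of 32851 RefSeq promoters (3.44%) held the motif. RefSeq entries matched 20 of the 28 listed interferon genes, and 11 of these 20 had a promoter with it (12 of 25 promoters, 48%). It was not found in the promoters of Irf7 and Isg20, whose ratios below were under that of Rsad2. Of the interferon gamma list 8 of 20 promoters held it (40%), of the granzyme list 3 of 17 and of the naive and memory list 0 of 24. A match describes these letters and is not a shown binding site.

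Isg15, a ubiquitin-like protein attached to other proteins in antiviral defence, had 1086 CPM in WT and 479 CPM in Ythdf2 KO cells (ratio 0.441, 0.402 to 0.483). Rsad2, the antiviral enzyme viperin, had 562 CPM in WT and 366 CPM in Ythdf2 KO cells (ratio 0.652, 0.582 to 0.730). The genes of the Ifit family, whose products bind foreign RNA, followed, with Ifit3 at 362 CPM in WT and 239 CPM in Ythdf2 KO cells (ratio 0.660, 0.572 to 0.759) and Ifit1 at 385 CPM in WT and 261 CPM in Ythdf2 KO cells (ratio 0.678, 0.592 to 0.776). Irf7, the transcription factor that amplifies the interferon response, had 404 CPM in WT and 240.5 CPM in Ythdf2 KO cells (ratio 0.595, 0.518 to 0.682). The gap was wider among the myeloid-poor cells, where the ratio was 0.333 for Isg15, 0.194 for Rsad2, 0.320 for Ifit3, 0.377 for Ifit1 and 0.509 for Irf7. Bst2, which tethers budding viruses to the membrane, was at 681 CPM in WT and 452 CPM in Ythdf2 KO cells (ratio 0.665, 0.600 to 0.736), and Isg20, an RNA-degrading enzyme, at a ratio of 0.636. Ly6a, which T cells express more after interferon, had a ratio of 0.919, not past 1.5-fold. Ifit3 shares 31.7% of its 100-base stretches with Ifit3b, so reads of those copies may have been split or lost.

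Cell by cell, the summed UMIs of the interferon list were spread widely in both libraries. Per 10000 UMIs, a WT cell had from 6.28 to 420 with a median of 80.9, and a Ythdf2 KO cell from 6.00 to 349 with a median of 42.7, so the libraries overlapped over nearly their whole range. At or above 100 per 10000 were 53 of 138 WT cells (38.4%) and 24 of 123 Ythdf2 KO cells (19.5%). Among the myeloid-poor cells the medians were 49.9 and 29.7, and 18 of 64 WT cells (28.1%) and 6 of 75 Ythdf2 KO cells (8%) reached 100. Among the cells with more myeloid RNA the medians were 96.7 and 85.6. Myeloid RNA therefore moved with the level of these genes within each library, while the genotypes also differed where it was low. Thinned to 1000 UMIs, 51.1% of WT and 28.7% of Ythdf2 KO CD8 T cells had an Isg15 UMI (87.0% and 68.3% unthinned). B cells, with medians of 2220.5 and 2094 UMIs, had 16.1% and 9.12% at that depth.

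**Figure D3:**
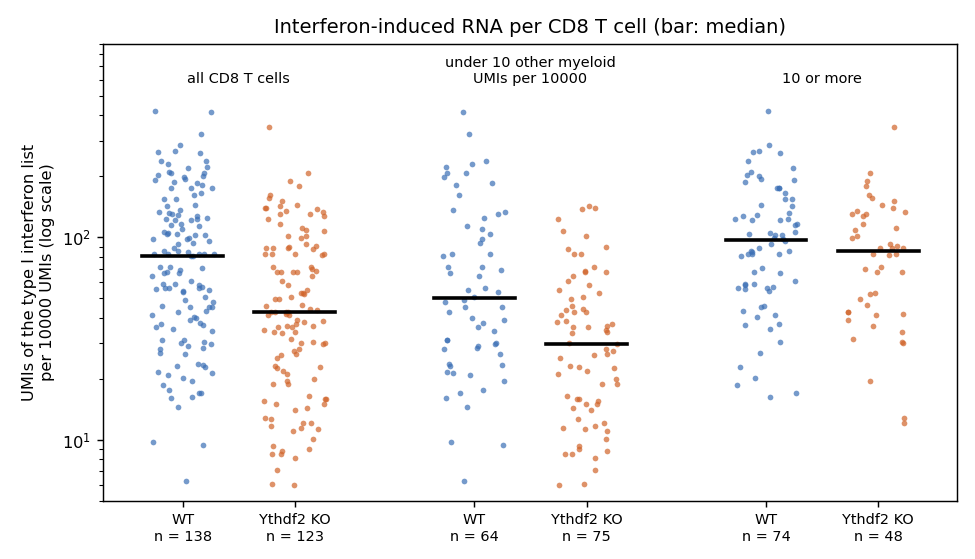
Each point is a cell, with its summed UMIs of the type I interferon list per 10000 UMIs on a logarithmic axis, for all CD8 T cells, those under 10 other myeloid UMIs per 10000 and those with 10 or more, in WT (blue) and Ythdf2 KO (orange), with the median as a bar. The Ythdf2 KO medians are lower, 29.7 against 49.9 among the myeloid-poor cells and 85.6 against 96.7 among the others, and the points overlap widely.

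The interferon genes of other populations differed less. NK cells had 0 of 26 measured genes past 1.5-fold, where only 170 of all 10217 measured genes were lower and 169 higher. The list's median log2 ratio in NK cells was -0.06, with medians per cell of 28.7 in WT and 24.8 in Ythdf2 KO. The median was -0.13 in the CD8 T barcodes with RNA of the 6 macrophage genes, -0.01 in B cells and -0.18 in macrophages. When the barcodes with macrophage RNA were added to the CD8 T cells, the list's median was -0.23 and Rsad2 stood at a ratio of 1.01. Differences between populations were not tested. Within the CD8 T cells the gap was widest in cells with circulation genes only, where the list summed to 10946 CPM in 16 WT cells and 2269 CPM in 11 Ythdf2 KO cells. Cells with effector genes only had 8476 and 5370 CPM, and cells with both kinds 8078 and 8066 CPM. Of the cells with circulation genes only, 9 of 16 in WT and 10 of 11 in Ythdf2 KO were myeloid-poor, and the part of that in the gap was not tested.

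Genes induced by interferon gamma and genes of antigen presentation on MHC class I leaned the same way with smaller differences. The lists share some genes of antigen processing, so they are not independent of each other. Of 18 measured interferon gamma genes, 5 were past 1.5-fold lower and 0 higher, with a median log2 ratio of -0.45 (-0.31 in the myeloid-poor cells, where 1 of 9 was higher and 2 lower). The transcription factor Irf1 had 245 CPM in WT and 139.5 CPM in Ythdf2 KO cells (ratio 0.571, 0.476 to 0.683) and the GTPase Irgm1, which acts on intracellular pathogens, 108 CPM in WT and 51.5 CPM in Ythdf2 KO cells (ratio 0.475, 0.354 to 0.633). Ifng, the cytokine itself, had nearly equal levels, with 796 CPM in WT and 811 CPM in Ythdf2 KO cells (ratio 1.02, 0.935 to 1.11). Of 17 measured MHC class I genes, 16 were under 1 and 3 past 1.5-fold, with a median of -0.31, and in the myeloid-poor cells the median was -0.21 with 3 of 15 past 1.5-fold. Nlrc5, the transactivator of MHC class I genes, was the lowest at 66.5 CPM in WT and 27.8 CPM in Ythdf2 KO cells (ratio 0.418, 0.280 to 0.614), with a ratio of 0.389 (0.199 to 0.740) in the myeloid-poor cells and 0.991 in NK cells. The MHC class I list leaned the same way in macrophages, where 16 of 17 genes were under 1, 3 past 1.5-fold and the median was -0.32, and in the CD8 T barcodes with macrophage RNA, with 16 of 17 under 1, 1 past 1.5-fold and a median of -0.17. In NK cells its median was 0.08 and in B cells -0.04. The interferon gamma list had medians of -0.17 in macrophages, -0.10 in the CD8 T barcodes with macrophage RNA, 0.05 in NK cells and 0.07 in B cells. H2-Q6 belongs to a family of near-identical class I genes whose reads may be shared, so its ratio of 0.645 is uncertain.

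Genes of naive and memory T cells were lower in Ythdf2 KO. All 12 measured genes had ratios under 1 and 7 were past 1.5-fold, with a median log2 ratio of -0.64. In the myeloid-poor cells 5 of 8 were past 1.5-fold lower and 7 of 8 under 1, with a median of -0.68. The CD8 T barcodes with macrophage RNA leaned the same way, with 15 of 16 under 1, 4 past 1.5-fold lower and a median of -0.28. The median was 0.14 in NK cells, 0.09 in B cells and -0.08 in macrophages. Tcf7 (mm10 chr11:52252371-52283014) had 75.2 CPM in WT and 31.8 CPM in Ythdf2 KO cells (ratio 0.423, 0.292 to 0.607), and 0.363 (0.224 to 0.582) in the myeloid-poor cells. Klf3, a repressor related to Klf2, had 64.9 CPM in WT and 19 CPM in Ythdf2 KO cells (ratio 0.292, 0.183 to 0.454), and Klf2 had 666 CPM in WT and 441 CPM in Ythdf2 KO cells (ratio 0.662, 0.596 to 0.734). The homing receptor of lymph nodes, Ccr7, had 251 CPM in WT and 127 CPM in Ythdf2 KO cells (ratio 0.507, 0.421 to 0.610). Its ratio ran from 0.313 to 0.741 over 15 choices of cells and scaling. What part of the Ccr7 RNA came from other cell types was not tested. Ly6c2, a surface protein of memory CD8 T cells and monocytes, had 2036 CPM in WT and 1359.5 CPM in Ythdf2 KO cells (ratio 0.668, 0.630 to 0.708). The receptor chain for interleukin 7, Il7r, which keeps memory cells alive, was at 309 CPM in WT and 208 CPM in Ythdf2 KO cells (ratio 0.674, 0.578 to 0.784), just short of 1.5-fold lower.

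Few cells held Tcf7, and the share of cells in the circulation state differed little between the libraries. After thinning, a Tcf7 UMI was in 9.49% of WT and 4.92% of Ythdf2 KO cells, and in 0 of 118 WT B cells, which allows up to 2.54%. Within the cells with effector genes only, Klf3 stood at 49.5 CPM in WT (22 of 76 cells) and 11.9 CPM in Ythdf2 KO (7 of 73 cells). Within those with circulation genes only, Tcf7 was nearly equal at 307 and 302 CPM. Cd44, the antigen-experience marker in the list, had a ratio of 0.899 over all cells and 1.49 in the myeloid-poor cells, the one measured member above 1 there.

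Trafficking genes were mostly lower too, though few could be measured in the myeloid-poor cells. Of 8 measured chemokine receptors and adhesion genes, 4 were past 1.5-fold lower and 0 higher, with a median log2 ratio of -0.54, against 0.00 over the 3 that had enough UMIs in the myeloid-poor cells. The chemokine receptor Cxcr4 was lower in both sets, with 115 CPM in WT and 66.4 CPM in Ythdf2 KO cells (ratio 0.578, 0.443 to 0.752) and a ratio of 0.371 (0.221 to 0.611) in the myeloid-poor cells. The integrin chain Itga4 had a ratio of 0.447 and its partner Itgb7 one of 0.500, which became 1.12 (0.652 to 1.99) in the myeloid-poor cells. Of 8 measured tissue residence genes, 2 were past 1.5-fold lower and 0 higher, with a median log2 ratio of -0.31, but in the myeloid-poor cells 2 of 7 were higher and 1 lower, with a median of 0.07. The 2 lower genes were Xcl1, described below, and Cd69, which holds T cells in tissue, at a ratio of 0.661 and 0.613 in the myeloid-poor cells. Cxcr6, a receptor of resident T cells, had 116 CPM in WT and 171 CPM in Ythdf2 KO cells (ratio 1.48, 1.21 to 1.83) and was past 1.5-fold in the myeloid-poor cells (1.9).

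Granzyme genes of the Gzmc to Gzmg cluster were higher in Ythdf2 KO, from a summed WT level below that of B cells. Of 14 measured granzyme, perforin and granule genes, 5 were past 1.5-fold higher and 0 lower, where 6.62% of all genes were higher, and the median log2 ratio was 0.26. The median was 0.48 in the CD8 T barcodes with macrophage RNA and 0.17 in NK cells, but -1.17 in B cells and -0.82 in macrophages. The 5 were neighbours on mm10 chr14 between 56117626 and 56234656. Gzmc had 828 CPM in WT and 1866 CPM in Ythdf2 KO cells (ratio 2.25, 2.1 to 2.42), Gzmd 214 CPM in WT and 797 CPM in Ythdf2 KO cells (ratio 3.73, 3.26 to 4.27), Gzme 131 CPM in WT and 493 CPM in Ythdf2 KO cells (ratio 3.78, 3.18 to 4.5), Gzmf 1597 CPM in WT and 3028 CPM in Ythdf2 KO cells (ratio 1.9, 1.8 to 2.0) and Gzmg 23 CPM in WT and 88.1 CPM in Ythdf2 KO cells (ratio 3.84, 2.55 to 5.95). In the myeloid-poor cells the ratios were 1.77, 5.26, 3.43, 1.38 and 2.24 (1.27 to 4.17) in the same order. Their transcripts shared at most 0.247% of 100-base stretches with others among Gzma to Gzmg, Gzmk and Gzmm. Reads of these genes could thus largely be told apart from each other, and other transcripts were not compared. The more widely expressed killing genes differed less, with Gzmb at 2647 CPM in WT and 3337 CPM in Ythdf2 KO cells (ratio 1.26, 1.21 to 1.32), Prf1 at 413 CPM in WT and 561 CPM in Ythdf2 KO cells (ratio 1.36, 1.22 to 1.52) and Gzma at 641 CPM in WT and 583 CPM in Ythdf2 KO cells (ratio 0.910, 0.825 to 1.0).

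The cluster was concentrated in a minority of cells. At least 1% of all UMIs came from these 5 genes in 8 WT cells (5.80%) and 14 Ythdf2 KO cells (11.4%), and UMIs of all 5 genes were in 2 WT and 9 Ythdf2 KO cells. NK cells were far higher, with 22968 CPM in WT and 28874 CPM in Ythdf2 KO against 2793 and 6271 CPM in the CD8 T cells, and 47.4% and 50.8% of them passed 1%. RNA of the cluster was also in cells that should lack it: any UMI of the 5 genes was in 62.7% of WT and 41.1% of Ythdf2 KO B cells, against 71.7% and 74.8% of CD8 T cells. B cells had 4561.5 CPM of the cluster in WT and 2335 CPM in Ythdf2 KO, so the WT CD8 T cells lay below B cells of their library and the Ythdf2 KO CD8 T cells above theirs. For Gzmc alone B cells had 3199 CPM in WT and 1968 CPM in Ythdf2 KO, both above the CD8 T cells. Gzmf was the exception in WT, with 1597 CPM in CD8 T cells against 306 CPM in B cells. The WT levels of the other 4 genes, all below those of B cells, are not read as expression above background, and their ratios rest on them. The B cells were chosen without a limit on NK genes, and their sums leaned on a minority of barcodes. The median B cell had 3.66 cluster UMIs per 10000 in WT and 0 in Ythdf2 KO, and 3 B cells of each library passed 1%. The median CD8 T cell had 1.89 and 3.23. What part NK cell RNA has in the B cell levels was not tested. At 1000 UMIs per cell, Gzmd was in 3.65% of WT CD8 T cells, below the 7.63% of WT B cells and so read as background, and in 18% of Ythdf2 KO CD8 T cells, above the 3.26% of Ythdf2 KO B cells. For Prf1 the shares were 15.3% and 29.5% in CD8 T cells and 3.39% and 2.93% in B cells. Without the 27 WT and 34 Ythdf2 KO cells that had an NK gene UMI, the ratio was 1.32 for Gzmc, 1.80 for Gzmd, 2.26 for Gzme, 1.03 for Gzmf and 1.64 for Gzmg, so 2 of the 5 were no longer past 1.5-fold. The part that RNA of NK cells has in the remaining differences was not tested. Serpinb9b, which encodes an intracellular protease inhibitor, moved with them, with 128 CPM in WT and 326 CPM in Ythdf2 KO cells (ratio 2.54, 2.12 to 3.06), in 11 WT and 42 Ythdf2 KO cells, and its ratio in NK cells was 2.13.

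Among cytokines and chemokines, single genes stood out and the group did not lean one way. Of 8 measured genes, 2 were past 1.5-fold higher and 2 lower, with a median log2 ratio of -0.08. Ccl5, a chemokine that CD8 T cells store and release to draw in T cells and myeloid cells (ENSMUSG00000035042; mm10 chr11:83525778-83530518), had 3512 CPM in WT and 1259.9 CPM in Ythdf2 KO cells (ratio 0.359, 0.340 to 0.379). Its UMIs were in 105 WT and 78 Ythdf2 KO cells, and no single cell gave more than 9.89% of them. The ratio was 0.455 in the myeloid-poor cells and 0.502 in the CD8 T barcodes with macrophage RNA, but 1.67 in NK cells. At 1000 UMIs per cell, 57.7% of WT and 35.2% of Ythdf2 KO CD8 T cells held a Ccl5 UMI, against 8.47% and 6.84% of B cells. Ccl5 was lower in each state, at 3608 and 1362 CPM in cells with effector genes only and 4114 and 930 CPM in cells with neither kind.

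Ccl3, an inflammatory chemokine of activated lymphocytes and macrophages, was higher, with 362 CPM in WT and 652 CPM in Ythdf2 KO cells (ratio 1.8, 1.61 to 2.02) and a ratio of 2.77 in the myeloid-poor cells. Ccl4, its close relative, had 2470.4 CPM in WT and 2174 CPM in Ythdf2 KO cells (ratio 0.880, 0.837 to 0.925). An Ifng UMI was in 15.3% of WT and 32.8% of Ythdf2 KO cells at 1000 UMIs, against 1.7% and 0.651% of B cells, although the CPM was nearly equal, so the share is not read as a difference in level. Spp1, a secreted protein, had a ratio of 2.23, which dropped to 1.03 without the highest doublet scores. Of the other populations NK cells had the most Spp1, with 3888 CPM in WT and 3890 CPM in Ythdf2 KO, against 708 and 763 CPM in macrophages. Xcl1, which attracts cross-presenting dendritic cells, had 274 CPM in WT and 138 CPM in Ythdf2 KO cells (ratio 0.504, 0.422 to 0.602). It rested on 25 WT and 18 Ythdf2 KO cells, with 68.6% of the Ythdf2 KO UMIs in 1 cell, and with at least 4 Cd8 UMIs asked of each cell the ratio was 1.20.

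**Figure D4:**
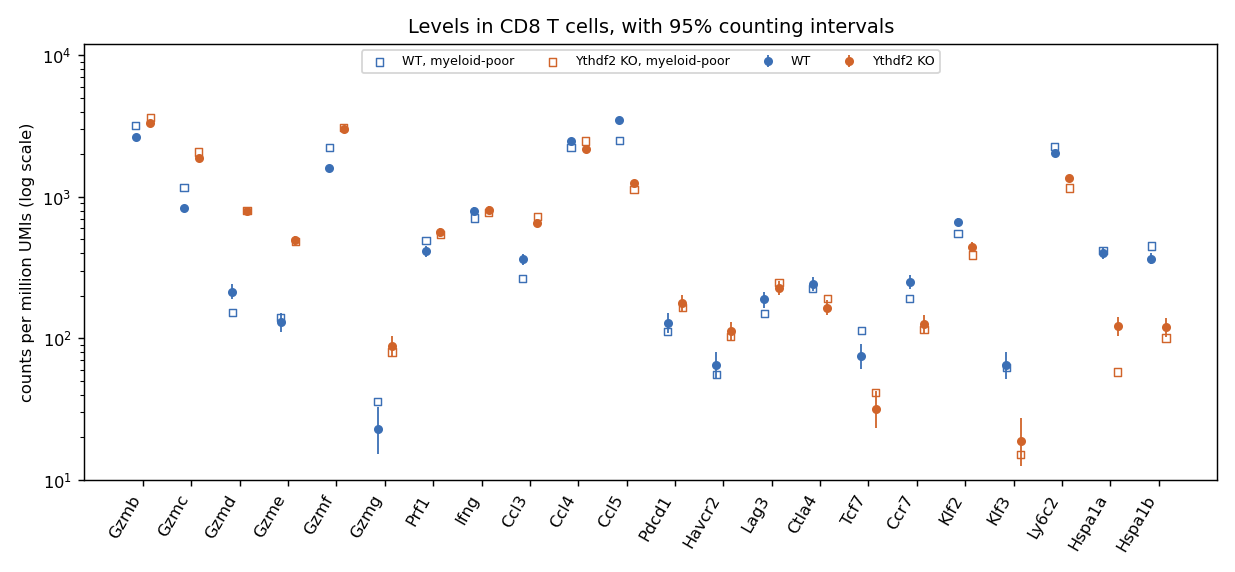
Levels of single genes in CPM, on a logarithmic axis, in WT (blue) and Ythdf2 KO (orange) CD8 T cells, as filled circles with exact Poisson 95% intervals over all cells and open squares for the myeloid-poor cells. Ccl5, Tcf7, Klf3 and Hspa1a stand lower in Ythdf2 KO, Gzmc, Gzmd and Gzme higher, and Ifng is nearly equal.

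Inhibitory receptors differed gene by gene. Of 7 measured genes, Havcr2, which encodes TIM-3, was past 1.5-fold higher with 64.9 CPM in WT and 112 CPM in Ythdf2 KO cells (ratio 1.73, 1.32 to 2.29), and Cd200 was past it lower at a ratio of 0.348, turning to 1.44 (0.521 to 4.58) in the myeloid-poor cells. The median log2 ratio was 0.05, and 0.57 over the 5 genes measured in the myeloid-poor cells. Pdcd1, which encodes PD-1, had 129 CPM in WT and 178 CPM in Ythdf2 KO cells (ratio 1.38, 1.13 to 1.69), Lag3, a receptor for MHC class II, 188 CPM in WT and 227 CPM in Ythdf2 KO cells (ratio 1.21, 1.02 to 1.43), and Ctla4, a brake on costimulation, 243 CPM in WT and 165 CPM in Ythdf2 KO cells (ratio 0.680, 0.573 to 0.807). At 1000 UMIs per cell, a Pdcd1 UMI was in 10.2% of WT and 21.3% of Ythdf2 KO cells and a Havcr2 UMI in 2.92% and 13.1%, and neither gene had a UMI in 118 WT B cells, which allows up to 2.54%. No UMI of Pdcd1, Havcr2 or Lag3 was found in 101 of 137 WT cells (73.7%) and 75 of 122 Ythdf2 KO cells (61.5%) at that depth. All 3 were together in 22 WT cells (15.9%) and 42 Ythdf2 KO cells (34.1%) before thinning, and at 2000 UMIs in 7 Ythdf2 KO cells (5.74%) and no WT cell, which allows up to 2.27%.

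Receptors with other roles lay closer to 1. Of 7 measured costimulatory receptors, 1 was past 1.5-fold lower and 0 higher, with a median log2 ratio of -0.15 (0.20 in the myeloid-poor cells). Tnfrsf9, which encodes 4-1BB, had 288 CPM in WT and 381 CPM in Ythdf2 KO cells (ratio 1.32, 1.16 to 1.51). NK cell receptors that CD8 T cells also carry had a median of 0.39 over 6 measured genes, with 1 past 1.5-fold: the activating receptor Klrc2, at 85.5 CPM in WT and 145 CPM in Ythdf2 KO cells (ratio 1.7, 1.34 to 2.16). Klrc2 shares 12.8% of its 100-base stretches with other transcripts, so part of its reads is uncertain. Its relative Klrc1, the inhibitory NKG2A, had 159.9 CPM in WT and 212 CPM in Ythdf2 KO cells (ratio 1.33, 1.11 to 1.59), and Klrk1, the activating NKG2D, 241 CPM in WT and 313 CPM in Ythdf2 KO cells (ratio 1.3, 1.12 to 1.5). Transcription factors of exhaustion and effector function had 0 of 13 past 1.5-fold, with a median of -0.30 that became 0.42 over 5 genes in the myeloid-poor cells. Of 12 measured cytokine receptors, 1 was past 1.5-fold higher, Il18rap of the interleukin 18 receptor at 55.4 CPM in WT and 104 CPM in Ythdf2 KO cells (ratio 1.87, 1.4 to 2.52), and 2 were lower, among them Il10ra of the interleukin 10 receptor at a ratio of 0.389.

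**Figure D5:**
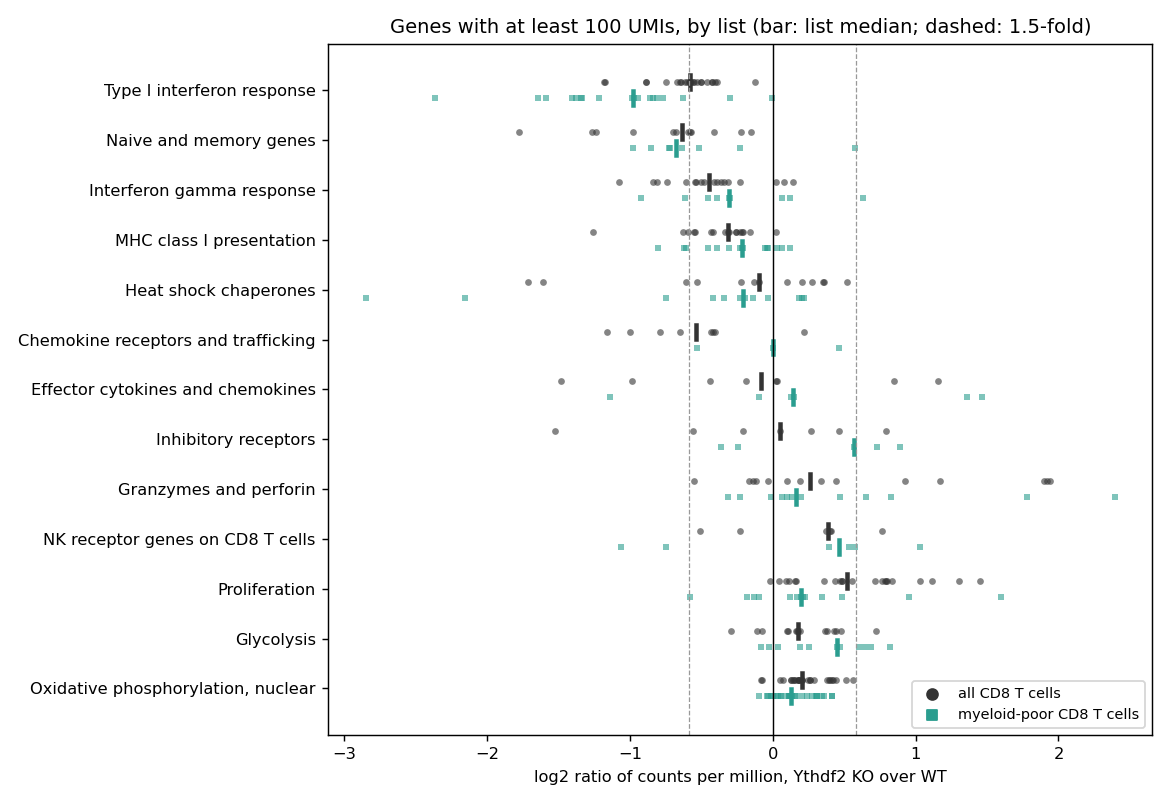
Log2 ratio of Ythdf2 KO over WT (horizontal) for each measured gene of 13 lists, over all CD8 T cells (grey circles) and over the myeloid-poor cells (green squares), with the list's median as a bar and dashed lines at 1.5-fold. The medians over all cells run from -0.64 for naive and memory genes to 0.52 for proliferation, and the type I interferon median moves from -0.58 to -0.98 in the myeloid-poor cells.

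Proliferation genes were higher in Ythdf2 KO, less so among the myeloid-poor cells. Of 22 measured genes, 21 were above 1 and 10 past 1.5-fold higher, with 0 lower and a median log2 ratio of 0.52. Among the myeloid-poor cells, 2 of 13 were past 1.5-fold and the median was 0.20. The difference was not found in CD8 T cells alone: macrophages had 9 of 22 genes past 1.5-fold higher and 0 lower with a median of 0.52, B cells 3 of 6 higher with a median of 0.60, and the CD8 T barcodes with macrophage RNA 5 of 25 higher with a median of 0.16. In NK cells the median was -0.12. Birc5, a mitosis protein also named survivin, had 53.8 CPM in WT and 133 CPM in Ythdf2 KO cells (ratio 2.47, 1.86 to 3.3), and Top2a, the topoisomerase of dividing cells, 136 CPM in WT and 242 CPM in Ythdf2 KO cells (ratio 1.78, 1.48 to 2.15), with ratios of 1.94 and 1.12 in the myeloid-poor cells. Cenpf, a kinetochore protein, had a ratio of 2.74 and Ube2c, an enzyme of mitotic exit, 2.04. Mki67, the usual marker of cycling cells, had 93.4 CPM in WT and 99.6 CPM in Ythdf2 KO cells (ratio 1.07, 0.831 to 1.37), but this value depended on which cells were kept, with 0.668 in the myeloid-poor cells and 3.46 without the cells that had an NK gene UMI. These transcripts were in few cells: a Birc5 UMI was in 19 WT and 33 Ythdf2 KO cells. The replication histone genes Hist1h1b and Hist1h2ap had ratios of 2.48 and 2.39.

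Energy metabolism differed by small amounts. Of 15 measured glycolysis genes, 1 was past 1.5-fold, Slc2a3, a glucose transporter, at 69.7 CPM in WT and 115 CPM in Ythdf2 KO cells (ratio 1.65, 1.27 to 2.16), and the list's median log2 ratio was 0.18, with 4 of 11 past 1.5-fold and a median of 0.45 in the myeloid-poor cells. Gapdh had a ratio of 1.39, Pgam1 1.36 and Tpi1 1.29. Other populations leaned the other way in glycolysis. The CD8 T barcodes with macrophage RNA had 2 of 16 genes above 1 and a median of -0.12, and NK cells 3 of 17 and -0.07. Macrophages had 2 of 17 above 1 and a median of -0.12, and B cells 1 of 9 and -0.23. With the barcodes that hold macrophage RNA added to the CD8 T cells, the list's median was -0.06 and Tpi1 stood at 0.905. Of 27 nuclear genes of oxidative phosphorylation, 25 were above 1 and 0 past 1.5-fold, with a median of 0.20. Macrophages had 26 of 27 above 1 and a median of 0.13, the CD8 T barcodes with macrophage RNA 23 of 27 and 0.09, and NK cells 13 of 27 and 0.00. Of 11 measured hypoxia genes, 3 were past 1.5-fold higher and 1 lower. Bnip3, a gene of mitochondrial clearance, was among the higher at a ratio of 1.57, and Vegfa, the vessel growth factor, was the lower at 0.441, which became 1.48 (0.486 to 5.37) in the myeloid-poor cells.

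Heat shock genes split by gene. The inducible chaperones Hspa1a (ENSMUSG00000091971; mm10 chr17:34969190-34972156) and Hspa1b were lower in Ythdf2 KO, Hspa1a with 400.5 CPM in WT and 122 CPM in Ythdf2 KO cells (ratio 0.304, 0.255 to 0.362) and Hspa1b with 366 CPM in WT and 119.9 CPM in Ythdf2 KO cells (ratio 0.328, 0.274 to 0.391). In the myeloid-poor cells the ratios were 0.139 and 0.225, in NK cells 0.721 and 0.572. They were 0.355 and 0.410 in B cells, 0.415 and 0.655 in CD4 T cells, and 0.606 and 0.500 in the CD8 T barcodes with macrophage RNA. Macrophages had 0.716 and 0.763, and neutrophils 0.601 and 1.16. These 2 genes are near copies, with 47.1% and 49.9% of their 100-base stretches shared, so the counts of each are uncertain but both lie on one side. Hsph1, their co-chaperone, had a ratio of 0.656, whereas the constitutive Hspa8 was at 0.913 and Hsp90ab1 at 1.28. Of 13 measured chaperones, 3 were past 1.5-fold lower and 0 higher, with a median log2 ratio of -0.10. B cells had 5 of 12 lower and a median of -0.47, and the CD8 T barcodes with macrophage RNA 4 of 14 and -0.27. NK cells had 1 of 14 lower and a median of -0.10, and macrophages 0 of 14 and -0.13. Tissue digestion can induce such genes, and a Hspa1a UMI was also in 28.8% of WT and 12.1% of Ythdf2 KO B cells at 1000 UMIs, against 22.6% and 12.3% of CD8 T cells. The part of digestion in this result was not tested. Immediate early genes, which digestion also induces, had 1 of 21 past 1.5-fold, Dusp1 at a ratio of 0.634 and 1.07 in the myeloid-poor cells. Of 13 measured genes of cell death and survival, 1 was past 1.5-fold higher, the survival gene Bcl2a1d at 1.54, and 2 lower, the death genes Pmaip1 at 0.543 and Casp8 at 0.597. Among the myeloid-poor cells Pmaip1 was at 1.03 (0.480 to 2.31) and Casp8 at 0.526 (0.336 to 0.819).

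Genes taken by size of the ratio alone, without a list, were of several kinds. Among the lower ones, Pmepa1, a feedback inhibitor and target of TGF-beta signalling, had 92.6 CPM in WT and 19.6 CPM in Ythdf2 KO cells (ratio 0.212, 0.136 to 0.321) and was detected in 63 WT and 20 Ythdf2 KO cells. The ratio was 0.240 (0.133 to 0.414) in the myeloid-poor cells, 0.328 in the CD8 T barcodes with macrophage RNA and 0.429 in NK cells. It was 0.217 in B cells, 0.320 in neutrophils, 0.425 in macrophages and 0.478 in CD4 T cells, so the Pmepa1 ratio was under 1 in each population compared. The CD4 T cell value rests on 21 WT and 4 Ythdf2 KO UMIs, and its interval (0.119 to 1.42) includes 1. Jak2, a kinase of cytokine receptors, had 80 CPM in WT and 23.7 CPM in Ythdf2 KO cells (ratio 0.296, 0.196 to 0.440), in 53 and 22 cells, with 0.309 (0.141 to 0.642) in the myeloid-poor and 1.01 in NK cells. Fscn1, Tbc1d4, Socs2, Ramp3, Cxcl16, Ccl9 and Cst3 had ratios from 0.182 to 0.413. Of the other populations in WT, CD4 T cells had the most of Fscn1, Tbc1d4, Socs2, Ramp3 and Cst3, and macrophages the most of Cxcl16 and Ccl9. No dendritic cell population was compared, and only 32 of 59 WT CD4 T cells were myeloid-poor by the same limit. Cst3 was at 3372 CPM in WT and 562 CPM in Ythdf2 KO CD4 T cells. All 5 measured genes of the dendritic cell list, Fscn1 among them, were past 1.5-fold lower in the CD8 T cells, where 9.36% of all genes were. Bst2, at a ratio of 0.665, is another of the 5, and it is also counted in the type I interferon list above. Cst3 turned to a ratio of 1.49 (1.15 to 1.94) in the myeloid-poor cells. Cst3 is among the genes whose sum defines the myeloid-poor cells, so its value there is not independent of that choice. The other 6 had at most 13 UMIs there, too few to give a direction: Cxcl16 had 2 in WT and 4 in Ythdf2 KO, Ramp3 2 and 6, Fscn1 0 and 6, Socs2 5 and 7, Tbc1d4 7 and 5 and Ccl9 7 and 6. Genes far below their level in another population were Arg1, Mpeg1, Cd300lf, Ctss and Itgam, all of myeloid cells, at ratios from 0.0755 to 0.462.

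Among the higher ones, the metallothioneins Mt1 and Mt2, which bind zinc, had ratios of 2.19 and 4.63, with 38.1% and 41.2% of the Ythdf2 KO UMIs in 1 cell. Without the cells of highest doublet score the ratios were 0.983 and 1.54, and in the myeloid-poor cells they were 3.62 and 6.59, so they rest on which cells are kept. Fn1, which encodes fibronectin and is made by macrophages and stroma, had 9.5 CPM in WT and 86.7 CPM in Ythdf2 KO cells (ratio 9.13, 5.05 to 18.1), with 66.4% of the Ythdf2 KO UMIs in 1 cell and a ratio of 0.980 without the highest doublet scores. Ccl8, a macrophage chemokine, had 79.1% of them in 1 cell. Cks1b and Cdca8, both of cell division, had ratios of 2.7 and 2.61, and neither depended on 1 cell (2.86 and 2.68 without the highest cell of each library).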

How the data were processed

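Per the labels' protocols, single cells were freed from tumours by enzymes, sorted for CD45 and made into libraries by a 10x 5′ protocol. The values deposited by the authors are raw counts of UMIs for each of 32285 genes in each barcode, without normalization. According to the submitters' processing notes, the build was mm10 and the tools were Seurat 4.0.4 and Cell Ranger 5.0.1. Per the file headers, however, the Cell Ranger version was 6.1.1.

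Cells were taken by the limits given above, and the share of barcodes carries an exact binomial (Clopper-Pearson) interval. UMIs were summed per library and scaled to 1000000 UMIs (CPM). Ratios carry an exact conditional binomial interval and levels an exact Poisson interval, all at 95% and for counting error only. Genes with at least 100 UMIs over both libraries counted as measured, and 1.5-fold served as the size rule, since 1 library per genotype allows no test and no p-value is given. Shares of cells with a UMI were taken after thinning each cell to 1000 UMIs (seed 1), with B cells as the background. Comparison populations were set by marker sums: NK cells by at least 3 UMIs of the NK genes without Cd3 or Cd8 UMIs, B cells by at least 3 UMIs of Cd79a, Cd79b and Ms4a1 without Cd3 UMIs, and macrophages by at least 50 UMIs of the 6 macrophage genes per 10000. Doublets were not removed: Scrublet scores were computed per library and removal of the highest 8% was an alternative.

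The cells and the 31 gene lists were chosen with earlier results of these data known. Named without a list were the 12 highest and 12 lowest ratios by the interval bound nearest to 1 among genes at 20% or more of the highest comparison population, and 5 each below that level. The myeloid-poor set, the addition of CD8 T barcodes with macrophage RNA and leaving out the cell with the most UMIs of a gene were chosen after seeing the data. Promoters came from RefSeq tables (GRCm38.p6) and gene positions from GENCODE vM21. Shared stretches were 100 bases of annotated transcripts, compared only among chosen genes of the same family. Some genes of the lists and sums are not reported here by name. The ratio script was tested on simulated counts. The tools were matplotlib 3.10.9, anndata 0.12.19, scanpy 1.11.5, pandas 2.3.3, scipy 1.17.1 and numpy 2.4.6 under Python 3.11.15.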

Additional observations from a re-analysis of the deposited data

Results flagged for a closer look

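For 3 genes the ratio of Ythdf2 KO over WT lay on opposite sides of 1 and past 1.5-fold in CD8 T cells and NK cells of the same libraries. The chemokine gene Ccl5 had a ratio of 0.359 in CD8 T cells and 1.67 in NK cells. The metallothionein gene Mt1 had 2.19 in CD8 T cells and 0.614 in NK cells, and Mt2 had 4.63 and 0.562. With 1 library per genotype the difference between the cell types was not tested. For Ccl5 the direction in CD8 T cells held in each of 15 settings, from 0.308 to 0.462. For Mt1 it turned to 0.983 without the cells of highest doublet score.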

How the results depend on the processing

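The share of CD8 T cells among kept barcodes depends on where the limits stand. In WT and Ythdf2 KO it was 0.500% and 0.625% with under 5 macrophage UMIs per 10000, 0.230% and 0.372% with none, 0.407% and 0.612% with at least 4 Cd8 UMIs, 0.544% and 0.562% with no NK gene UMI, 0.314% and 0.473% for the myeloid-poor cells, and 2.07% and 2.05% with the barcodes that hold macrophage RNA. With those barcodes, 2.33% of measured genes were past 1.5-fold higher and 3.24% lower. With a minimum of 30 UMIs 10.3% were higher, and with no minimum 16.7% were higher and 18.9% lower. Ythdf2 had a ratio of 0.408 without macrophage UMIs, 0.481 without NK gene UMIs and 0.498 as a mean over cells. The medians of the type I interferon list (-1.37 to -0.23) and of the naive and memory list (-0.77 to -0.35) stayed below 0 in 17 of 17 settings, as did the proliferation list above 0 (0.20 to 0.72). Among named genes past 1.5-fold over all cells, a ratio turned to the other side of 1 in 18 cases, and the cause was not tested. In the myeloid-poor cells these were Cd200 1.44, Itgb7 1.12, Cst3 1.49 (a gene of the sum that defines these cells), Cxcl16 1.24 (2 against 4 UMIs), Ramp3 1.85 (2 against 6), Cd300lf 3.09 (1 against 5), Vegfa 1.48, Dusp1 1.07 and Pmaip1 1.03. With the barcodes that hold macrophage RNA they were Rsad2 1.01, Fn1 0.909, Itgam 1.11 and Bnip3 0.818. Without the highest doublet scores they were Mt1 0.983 and Fn1 0.980. The rest were Xcl1 1.20 with at least 4 Cd8 UMIs, Itgb7 1.48 with no macrophage UMI and Vegfa 1.12 with under 5 per 10000. Of 32 named genes within 1.5-fold over all cells, 12 also crossed 1 in some setting, among them Mki67 (0.668 to 3.46), Ccl4 (0.619 to 1.5), Gzma (0.713 to 1.5), Ifng (0.775 to 2.07) and Cd44 (0.770 to 1.49). Of the other ratios of named genes, 1227 moved by less than their counting interval and 366 by more on the same side of 1 or within 1.5-fold. No paired analysis was possible because each genotype is 1 library. Of 3536 measured genes, many have near 100 UMIs, where counting alone gives wide intervals, and genes below that were left out of the counts past 1.5-fold. Some single-gene ratios in the myeloid-poor cells rest on far fewer.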
